A study of Mus musculus with 6 samples.

Results

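The genes described here are 10 transcription regulators known for squamous differentiation: *Grhl1*, *Grhl3*, *Klf4*, *Ovol1*, *Zfp750*, *Prdm1*, *Cebpa*, *Cebpb*, *Gata3* and *Hopx*. They were chosen by name, were matched to Ensembl IDs through the GENCODE annotation, and make up 10 of the 47643 gene IDs counted. All 10 passed the filter on low counts, which left 15792 genes for the test. Their RNA was counted in mSGOs, organoids of the mouse submandibular salivary gland, which are multicellular structures grown in Matrigel from dissociated gland cells of C57BL/6 mice aged 8 to 12 weeks. According to the methods of the study the mice were female, and the cells passed through a first culture as spheres before they were plated as single cells. All organoids were untreated, non-irradiated controls kept in WRY medium, which contains EGF, FGF2, insulin, dexamethasone, Y27632 and medium conditioned by cells that make Wnt3a or R-spondin1. Organoids of 3 mice were taken at 5 and at 7 days of culture, so that each day has 3 libraries and each mouse is present on both days. The time in culture is the only labelled difference between the groups, and no tissue or irradiated sample was analysed here.

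Squamous epithelium is layered: basal cells divide, and cells that leave the basal layer stop dividing and build a tough envelope of crosslinked proteins and lipids. This change is run by transcription factors that act in sequence, with grainyhead-like and Krüppel-like factors, C/EBP proteins and GATA3 acting as activators of barrier genes, and with OVOL1 and PRDM1 acting as repressors that help to close down the earlier state. A salivary gland is not a squamous tissue, but its ducts hold basal cells that carry the same keratins as basal squamous cells, and squamous metaplasia is a known response of salivary ducts.

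RNA was read from the 3′ end of polyadenylated transcripts, so a count is a transcript end and does not grow with gene length. Libraries held 1918198 to 2837397 counts in genes. Levels are given as CPM, counts per 1000000 counts of the TMM-scaled library. The epithelial identity of the cultures was read from 8 markers, all of which had counts and which together took 14385 to 18162 CPM on day 5 and 11561 to 16013 CPM on day 7. Day 7 libraries lay further apart than day 5 libraries, with a biological coefficient of variation of 0.292 against 0.0903.

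The comparison asked which of the 10 factors differ between 5-day and 7-day mSGOs. *Prdm1*, *Ovol1*, *Cebpb*, *Gata3* and *Hopx* were higher on day 7, and no factor was lower. A gene was called when its edgeR adjusted p, corrected over all genes tested, was under 0.05 and its log2 fold change was over 0.6 in size. By this rule 5 of 10 factors were called, all higher, while 12.0% of all genes tested were called, 7.22% higher and 4.82% lower. The median log2 fold change was 0.76 over the 10 factors and -0.01 over all genes. *Grhl1*, *Grhl3*, *Klf4*, *Zfp750* and *Cebpa* were not called. These are values of whole organoids, in which more cells of a type and more RNA per cell cannot be told apart. The days did not overlap in 4 of 10 factors, all higher on day 7, while this held for 30.9% of all genes tested in either direction. Leaving out single libraries changed the count of called factors, to 2, 2 and 1 without the day 5 library of mouse 1, 2 and 3, to 3 without day 7 mouse 2, and to 7 without day 7 mouse 3. The same fits called 892, 797 and 890 of all genes without the day 5 libraries, 1045 without day 7 mouse 2, and 2576 without day 7 mouse 3.

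**Figure D1:**
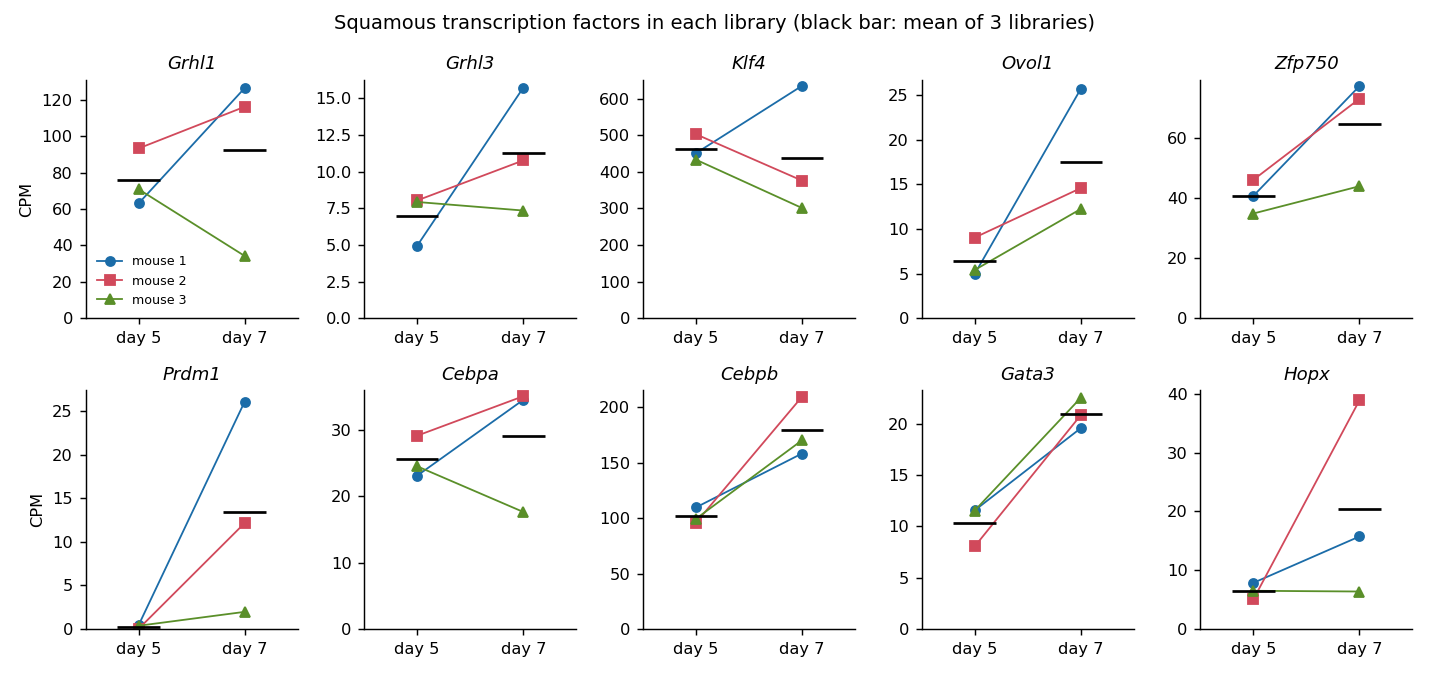
CPM of each of the 10 factors (vertical axes, linear and starting at 0, each with its own scale) on day 5 and day 7, with a line for each mouse and a black bar for the mean of 3 libraries. *Prdm1*, *Ovol1*, *Cebpb* and *Gata3* have all day 7 points above all day 5 points, while the 3 lines of *Klf4* run in different directions.

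The stretch upstream of a gene start is where many factors bind, so the start regions of the factors were read for short motifs. RefSeq promoters on the GRCm38.p6 build matched 8 of the 10 factors with 10 windows, with a pair each for *Hopx* and *Grhl1*, and *Ovol1* and *Zfp750* had no entry. The 250 bases before the start are shown for 3 called factors with a single start in the table, *Prdm1*, *Cebpb* and *Gata3*, with motif matches in capitals.

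*Prdm1* (chr10:44458749-44458998, minus strand): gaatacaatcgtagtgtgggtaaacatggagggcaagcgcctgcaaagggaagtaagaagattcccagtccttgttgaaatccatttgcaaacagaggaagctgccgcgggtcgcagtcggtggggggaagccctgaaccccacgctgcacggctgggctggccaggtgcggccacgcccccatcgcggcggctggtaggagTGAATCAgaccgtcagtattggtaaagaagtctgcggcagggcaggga

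*Cebpb* (chr2:167688665-167688914, plus strand): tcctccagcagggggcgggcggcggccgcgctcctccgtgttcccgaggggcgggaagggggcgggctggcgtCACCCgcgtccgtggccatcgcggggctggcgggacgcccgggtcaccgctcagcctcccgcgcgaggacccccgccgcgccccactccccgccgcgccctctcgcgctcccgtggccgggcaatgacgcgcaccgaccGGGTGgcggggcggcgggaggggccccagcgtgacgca

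*Gata3* (chr2:9878601-9878850, minus strand): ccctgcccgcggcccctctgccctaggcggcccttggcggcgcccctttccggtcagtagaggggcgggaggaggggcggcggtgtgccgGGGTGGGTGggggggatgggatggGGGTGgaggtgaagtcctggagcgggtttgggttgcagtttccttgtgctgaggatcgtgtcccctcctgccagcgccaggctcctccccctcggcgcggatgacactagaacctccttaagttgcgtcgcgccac

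Motifs were searched on both strands, and none of them contains another. CACCC, a core that KLF proteins recognise, was found before 5 of the 8 factors, *Gata3*, *Cebpb*, *Grhl3*, *Cebpa* and *Grhl1*. Counted by window, it was in 5 of the 10, beside 52.0% of all 32851 promoters. In *Gata3* it occurs 3 times, as GGGTG on the strand shown, with a pair of matches that share a base. The AP-1 motif TGANTCA was found once, in *Prdm1*, at 48 bases before the start, and in 6.75% of all promoters. TATAAA was found before *Cebpa* and in 12.4% of all promoters. The letters AACNGGTT for GRHL proteins (1.79% of all promoters), TTGCNNAA for C/EBP (9.56%), AGATAA for GATA (9.99%) and CCGTTA for OVOL (2.18%) were in none of the 10 windows. The window of *Cebpb* is rich in G and C (81.6%, against a median of 52.4% over all promoters), and those of *Gata3* (70.0%) and *Prdm1* (59.2%) less so.

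*Prdm1* (ENSMUSG00000038151, GRCm39 chromosome 10, 44313171 to 44404497) encodes the zinc finger repressor BLIMP1 of the outer epidermal layers and of plasma cells. Its start region carries the AP-1 match printed in the promoter sequences, a motif found in 6.75% of all promoters. A link between that match and the level of *Prdm1* was not tested. *Prdm1* rose from the edge of detection. It had 1, 0 and 1 counts in the day 5 libraries of mice 1, 2 and 3, and 68, 35 and 4 counts on day 7. These are 0.412, 0 and 0.360 CPM against 26.1, 12.2 and 1.96 CPM. All 3 day 7 values were higher than all day 5 values, but mouse 3 lay far under the other mice. The ratio of the pooled counts, 107 against 2, was 51.1 with a 95% counting interval from 13.8 to 427. The fitted log2 fold change was 5.39 ± 0.94 (SE, edgeR adjusted p = 0.000640), a size that depends on the prior count used in the fit. *Prdm1* was called in all 6 fits without 1 library, with log2 fold changes from 4.52 to 5.86. Over the 20 alternatives that kept *Prdm1*, its adjusted p ranged from 3.95e-16 to 0.0272, the highest with robust = TRUE in edgeR. With limma voom its log2 fold change was 4.44 (limma adjusted p = 0.0244). Without day 7 mouse 1, which held most of its counts, the count ratio was 28.5 (7.37 to 244).

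*Ovol1* (ENSMUSG00000024922, chromosome 19, 5599164 to 5610674), a zinc finger repressor that restrains the growth of suprabasal keratinocytes, rose in every mouse. It was at 4.95, 9.04 and 5.40 CPM on day 5 and at 25.7, 14.6 and 12.2 CPM on day 7 in mice 1, 2 and 3. The days did not overlap, which held in the upward direction for 15.4% of all genes tested. The log2 fold change was 1.47 ± 0.36 (SE, edgeR adjusted p = 0.0114), or 2.76-fold. The values rest on 12 to 18 counts in a day 5 library, and the call was lost without day 5 mouse 1 (1.31, edgeR adjusted p = 0.0923) or day 5 mouse 3 (1.34, edgeR adjusted p = 0.0910). Over all alternatives the adjusted p of *Ovol1* ranged from 0.000441 to 0.0923.

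The C/EBP proteins are leucine zipper factors that take keratinocytes out of the cell cycle and activate keratin genes of differentiating cells. *Cebpb* (ENSMUSG00000056501, chromosome 2, 167530835 to 167532338) was at 110, 95.9 and 99.4 CPM on day 5 and at 158, 210 and 170 CPM on day 7. The days did not overlap, with means of 102 ± 7.18 CPM on day 5 and 179 ± 26.8 CPM on day 7 (SD, n = 3). Its log2 fold change was 0.82 ± 0.19 (SE, edgeR adjusted p = 0.00820). The call was lost without day 5 mouse 2 (0.78, edgeR adjusted p = 0.0809) or mouse 3 (0.80, edgeR adjusted p = 0.0729), and over all alternatives the adjusted p ranged from 0.00126 to 0.342. *Cebpa* (ENSMUSG00000034957, chromosome 7, 34818718 to 34821353) was at 23.1, 29.1 and 24.5 CPM on day 5 and at 34.5, 35.1 and 17.6 CPM on day 7. It was higher on day 7 in mice 1 and 2 and lower in mouse 3, and the days overlapped. The log2 fold change of *Cebpa* was 0.20 with a 95% interval from -0.37 to 0.78 (edgeR adjusted p = 0.697).

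*Gata3* (ENSMUSG00000015619, chromosome 2, 9861889 to 9894845), a GATA zinc finger factor of the skin barrier that also guides luminal cells in glands such as the breast, rose in every mouse to day 7 levels that lay close together. It was at 11.5, 8.03 and 11.5 CPM on day 5 and at 19.6, 20.8 and 22.5 CPM on day 7. The days did not overlap, and *Gata3* was the 1 factor of the 10 whose relative spread was smaller on day 7 than on day 5 (coefficient of variation 7.07% against 19.5%). Its log2 fold change was 1.00 ± 0.28 (SE, edgeR adjusted p = 0.0243). With 16 to 60 counts in a library, the call was lost when the day 5 library of mouse 1, 2 or 3 was left out (1.07, 0.86 and 1.08) and without day 7 mouse 2 (1.00), with edgeR adjusted p from 0.0724 to 0.150. Over all alternatives its adjusted p ranged from 0.00949 to 0.255.

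*Hopx* (ENSMUSG00000059325, chromosome 5, 77234831 to 77263022) encodes a small homeodomain protein that does not bind DNA itself and is known from suprabasal keratinocytes and from stem cells of hair follicle and gut. It was at 7.84, 5.02 and 6.49 CPM on day 5 and at 15.7, 38.9 and 6.36 CPM on day 7. Mouse 2 was highest on day 7, mouse 1 was next, and mouse 3 stayed within the day 5 range, so the days overlapped. The log2 fold change was 1.67 ± 0.47 (SE, edgeR adjusted p = 0.0252). Of the 5 calls this was lost in the most alternatives, 11 of 21. Without day 7 mouse 2 the log2 fold change was 0.79 (edgeR adjusted p = 0.307), and without the day 5 library of mouse 1, 2 or 3 it was 1.82, 1.53 and 1.66 (edgeR adjusted p from 0.0813 to 0.148). The call was also missed with limma voom (1.36, limma adjusted p = 0.147), and over all alternatives its adjusted p ranged from 1.81e-05 to 0.307.

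**Figure D2:**
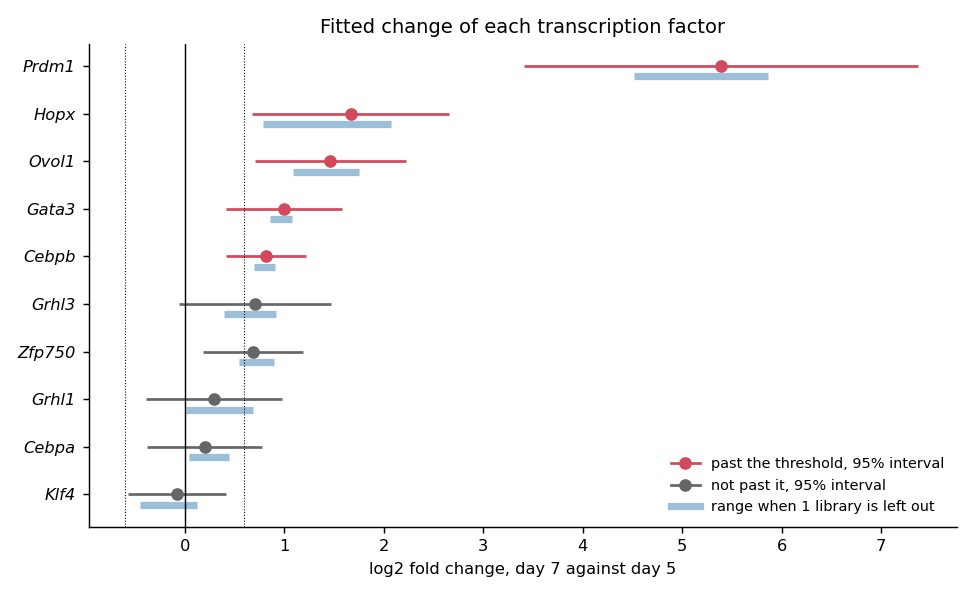
Fitted log2 fold change of each factor (horizontal axis, day 7 against day 5) with its 95% interval, in red for the 5 called factors and in grey for the other 5, and dotted lines at the minimum change of 0.6 in each direction. The blue bars span the values when 1 library is left out, and they cross 0 only for *Klf4*, from -0.45 to 0.13.

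The grainyhead-like factors activate genes of cell junctions and of the barrier, and neither of those listed was called. *Grhl1* (ENSMUSG00000020656, chromosome 12, 24622197 to 24669816) was at 63.1, 93.4 and 71.0 CPM on day 5 and at 127, 116 and 34.3 CPM on day 7. Mice 1 and 2 were above all day 5 values on day 7, and mouse 3 was below all of them. The log2 fold change of *Grhl1* was 0.30 with a 95% interval from -0.39 to 0.98 (edgeR adjusted p = 0.611). Without day 7 mouse 3 it was 0.69 and past the threshold (edgeR adjusted p = 0.0102, from 0.0102 to 1.00 over all alternatives). *Grhl3* (ENSMUSG00000037188, chromosome 4, 135268329 to 135300992), needed for the skin barrier and for closure of the neural tube, had 12 to 22 counts in a day 5 library and 15 to 41 on day 7. It was at 4.95, 8.03 and 7.93 CPM on day 5 and at 15.7, 10.8 and 7.34 CPM on day 7. Mouse 3 again stayed within the day 5 range, and the log2 fold change was 0.71 with an interval from -0.05 to 1.47 (edgeR adjusted p = 0.225). At this depth a change of the size seen for *Gata3* was inside that interval.

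*Klf4* (ENSMUSG00000003032, chromosome 4, 55527139 to 55532528), a zinc finger factor needed for the epidermal barrier and known as a reprogramming factor, had the most counts of the 10, 615 to 1655 in a library. It was at 451, 503 and 433 CPM on day 5 and at 635, 376 and 301 CPM on day 7. Mouse 1 rose above the day 5 range, mice 2 and 3 fell below it, and the day 7 values ended on either side of day 5. The log2 fold change of *Klf4* was -0.08 with a 95% interval from -0.57 to 0.41 (edgeR adjusted p = 0.878), and its sign turned without day 7 mouse 2 (0.02) or mouse 3 (0.13). The coefficient of variation of *Klf4* was 40.0% over the day 7 libraries against 7.82% over those of day 5.

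*Zfp750* (ENSMUSG00000039238, chromosome 11, 121401804 to 121410620), the mouse form of ZNF750, promotes late epidermal differentiation together with the corepressor proteins KDM1A, RCOR1, CTBP1 and CTBP2. It was at 40.8, 46.2 and 34.9 CPM on day 5 and at 77.5, 73.3 and 44.1 CPM on day 7. Each mouse was higher on day 7, but mouse 3 on day 7 lay under mouse 2 on day 5, so the days overlapped. The log2 fold change was 0.69 with a 95% interval from 0.18 to 1.19, and the factor missed the threshold with an edgeR adjusted p of 0.0686. Without day 7 mouse 3 it passed (0.90, edgeR adjusted p = 0.00173, from 0.00173 to 0.609 over all alternatives).

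The differences between mice on day 7 recurred across the group. Mouse 3 held the lowest day 7 value in 8 of the 10 factors, where it was lowest in 34.1% of all genes tested. The exceptions were *Cebpb* and *Gata3*, in which mouse 1 was lowest. Mouse 1 held the highest day 7 value in 6 of 10 factors and in 31.3% of all genes tested. Within mouse 3 the log2 ratio of day 7 to day 5 was -1.05 for *Grhl1*, -0.11 for *Grhl3*, -0.52 for *Klf4*, -0.48 for *Cebpa* and -0.03 for *Hopx*. In mouse 1 all 10 ratios were above 0, from 0.49 for *Klf4* to 5.98 for *Prdm1*. The 5 factors that were higher on day 7 in all 3 mice were *Ovol1*, *Zfp750*, *Prdm1*, *Cebpb* and *Gata3*. The relative spread was wider on day 7 in 9 of 10 factors and in 63.0% of all genes tested.

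**Figure D3:**
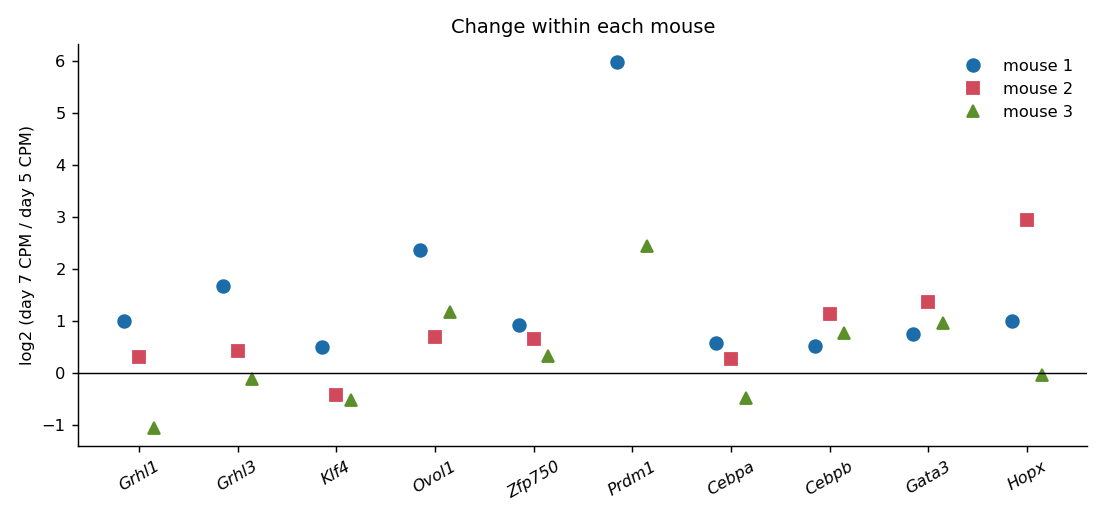
log2 ratio of day 7 CPM to day 5 CPM of each factor within each mouse (vertical axis, 0 marks equal levels), without a point for *Prdm1* in mouse 2, where the day 5 count was 0. Mouse 1 is above 0 for all 10 factors, while mouse 3 is under 0 for 5 of them.

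To place the factors beside their targets and partners, 5 lists of other genes were read from the same fit. The lists were written from general knowledge with earlier results of these data known, so their counts are a description and not a test. The squamous structural list holds keratins, envelope proteins, transglutaminases, proteases and barrier lipid enzymes. Of its 42 genes tested, 24 were higher and 1 was lower, beside 7.22% higher and 4.82% lower of all genes tested. The median log2 fold change of the list was 1.97, or 1.85 with the 4 genes at 0 on a day set to their bound. *Sprr1a*, an envelope precursor, went from 63.6 ± 16.3 to 735 ± 206 CPM (SD, n = 3), *Calml3* from 31.6 ± 6.96 to 303 ± 94.1 CPM, and *Cnfn* from 0.545 ± 0.158 to 88.8 ± 69.2 CPM. *Cst6*, which encodes the protease inhibitor cystatin M/E, was the gene that fell (log2 fold change -1.83). It had few counts, 12, 12 and 14 on day 5 and 5, 4 and 2 on day 7. No structural gene was called lower when any day 5 library or day 7 mouse 2 was left out. The number called lower was 2 without day 7 mouse 1, and 1 without day 7 mouse 3 or with the mouse as a block. The CPM summed over this list were 4227, 6524 and 4740 on day 5 and 13787, 11679 and 7806 on day 7 in mice 1, 2 and 3. Mouse 3 thus had the lowest day 7 sum, and it was lowest in 29 of the 42 genes.

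**Figure D4:**
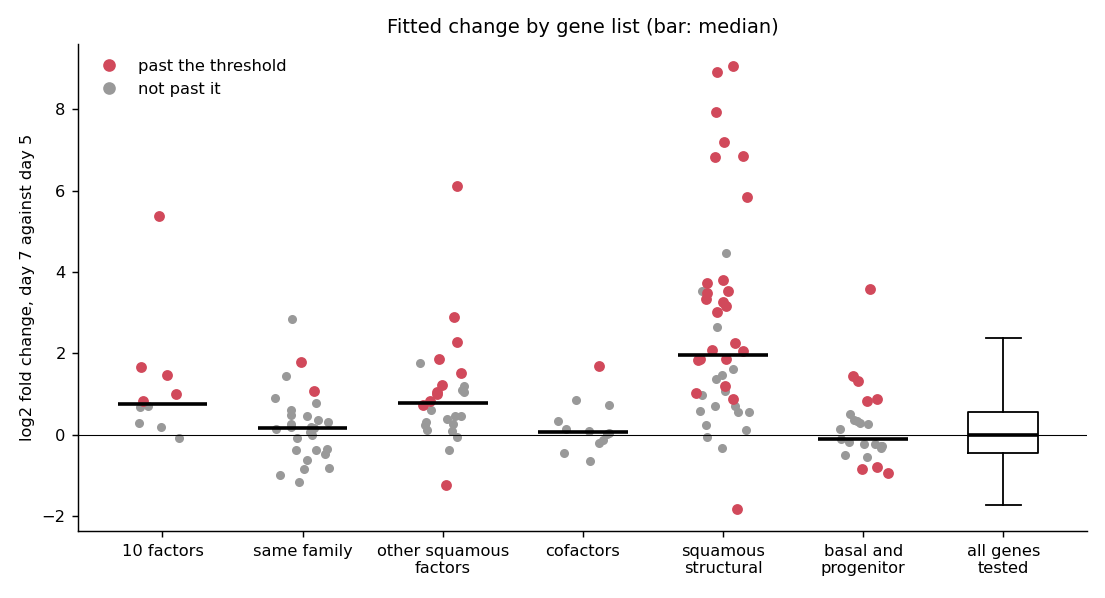
Fitted log2 fold change (vertical axis, day 7 against day 5) of every tested gene in the 10 factors and in each of the 5 other lists, in red where called, with a black bar for the median, and a box of quartiles with whiskers at the 5th and 95th percentiles for all genes tested. The median is 0.76 for the 10 factors, 0.77 for other squamous factors and 1.97 for structural genes, against -0.01 for all genes.

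Of 26 other transcription factors known in squamous epithelium, 10 were higher and 1 was lower, with a median of 0.77. Among all genes tested, 7.22% were higher and 4.82% lower. *Rora*, a retinoid-related orphan receptor, went from 8.92 ± 1.51 to 65.3 ± 22.4 CPM (SD, n = 3), and its fitted change was 2.89 on the log2 scale (edgeR adjusted p = 5.74e-06). *Mxd1*, an antagonist of MYC, rose by 2.28 on the log2 scale, and *Ehf*, an ETS factor of epithelia, by 1.51. *Fosl1*, a subunit of AP-1, was the factor that fell (-1.22, edgeR adjusted p = 0.0237). *Trp63*, the master factor of basal squamous cells, was not called (0.45, edgeR adjusted p = 0.271). Called genes in this list numbered 6 when the day 5 library of mouse 1, 2 or 3 was left out and 7 without day 7 mouse 2.

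Of 28 paralogs of the 10 factors, 2 were higher and 0 lower by edgeR, beside the 7.22% higher and 4.82% lower of all genes tested, and 7 had an unadjusted p under 0.05. *Cebpd*, another C/EBP gene, rose from 12.3 ± 6.27 to 42.9 ± 16.6 CPM (SD, n = 3, log2 fold change 1.79, edgeR adjusted p = 0.00242). *Klf9* rose from 130 ± 4.04 to 273 ± 105 CPM (1.07, edgeR adjusted p = 0.00754). *Grhl2*, the grainyhead-like factor of simple as well as layered epithelia, was at 80.6 ± 10.6 and 76.0 ± 16.5 CPM and was not called (-0.09). *Ovol2* was not called either (-0.62, edgeR adjusted p = 0.315). The count for the paralogs was 1 without day 5 mouse 1, 2 or 3 or day 7 mouse 2, and 5 without day 7 mouse 1 or mouse 3. The genes added without mouse 3, chosen after their values were seen, were *Klf7*, *Klf10* and *Klf15*, all higher.

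Of 12 proteins known to bind, pair with or degrade one of the factors, 1 was called, beside 12.0% of all genes tested. *Ddit3*, whose product CHOP pairs with C/EBP proteins, rose from 5.35 ± 1.01 to 17.7 ± 3.22 CPM (SD, n = 3, log2 fold change 1.70, edgeR adjusted p = 0.00181). The ZNF750 partners *Kdm1a* (0.01), *Rcor1* (0.13), *Ctbp1* (-0.12) and *Ctbp2* (-0.44) were not called. When the mouse entered the fit as a block, 3 cofactors were called, *Ddit3* (1.72), *Lmo4* (0.66) and *Hdac1* (-0.74), the last pair named after their values were seen. The same 3 were called without day 7 mouse 1, and 2 without day 7 mouse 3, with *Zfpm1* (0.86) in place of *Lmo4* and *Hdac1*. Of 23 genes known for the basal or progenitor state, 5 were higher and 3 lower, with a median of -0.10. The shares over all genes tested were 7.22% higher and 4.82% lower. The lower genes were *Dnmt1* (-0.78), *Uhrf1* (-0.93) and *Exosc9* (-0.85), which sustain dividing progenitors, and the higher genes with the smallest p were *Sox2* (3.58), *Id3* (1.45) and the basal keratin *Krt15* (1.32). *Sox2* had 6, 0 and 3 counts in the day 5 libraries, and the days overlapped for *Id3*. The basal count was 4, 2 and 4 without day 5 mouse 1, 2 and 3, of which 1, 0 and 0 were lower.

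Several of the factors also work outside squamous cells, *Prdm1* and *Gata3* in lymphocytes and *Cebpa* and *Cebpb* in macrophages and fat cells. Markers of these cells were therefore summed in each library. Of 9 T cell markers 6 had no count in any library, among them *Cd3d*, *Cd3e* and *Cd4*, and the sum was 0.347 to 2.88 CPM over the 6 libraries. All 8 markers of B and plasma cells were at 0. Of 12 macrophage markers 9 were at 0, including *Adgre1*, *Csf1r* and *Lyz2*, and the sum was 8.03 to 10.7 CPM on day 5 and 9.30 to 13.9 CPM on day 7. Of 6 fat cell markers 5 were at 0, among them *Adipoq* and *Plin1*. The remaining gene, *Fabp4*, had 161 to 209 CPM on day 5 and 1806, 388 and 268 CPM on day 7, with the highest value in mouse 1. Fibroblast markers summed to 0.360 to 1.00 CPM on day 5 and 1.92 to 2.94 CPM on day 7, with 4 of 10 at 0, and endothelial markers to 12.2 to 14.1 and 13.9 to 27.4 CPM, with 2 of 10 at 0. Salivary acinar markers, the gland's own secretory program, summed to 12.6 to 20.6 CPM on day 5 and 21.9 to 55.8 CPM on day 7, with 4 of the 11 counted at 0. An exact permutation test of a sum between the days cannot go below p = 0.1 with 3 against 3 libraries, so none of the 8 sums, epithelium included, could pass it (exact p from 0.1 to 1, adjusted p from 0.267 to 1). By the edgeR rule for single genes, 1 of the 8 epithelial markers was higher on day 7 and 1 was lower. In the macrophage, fat cell and acinar lists 1 marker each was higher on day 7, named here after their values were seen: *Cd68* (7 counts over day 5 and 39 over day 7, log2 fold change 2.36, edgeR adjusted p = 0.0151), *Fabp4* (2.12, edgeR adjusted p = 0.00536) and *Pip* (3 and 46 counts, 3.73, edgeR adjusted p = 0.0143). Their part in the levels of the 10 factors was not tested.

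Genes with the profile most like that of *Prdm1*, the factor with the smallest p, were taken from 8033 named genes whose mean level reached 10 CPM. Over the 6 libraries the log2 CPM of *Prdm1* had the highest Pearson correlations with *Dipk2a* (0.993), *Vegfa* (0.992) and *Fndc3a* (0.991). *Vegfa*, the vascular growth factor, was at 68.5, 57.2 and 70.6 CPM on day 5 and at 238, 174 and 80.3 CPM on day 7, with the mice in the same order on day 7 as in *Prdm1*. For *Klf4*, the factor with a log2 fold change under 0, they were *Uvrag* (0.994), *Plcd1* (0.985) and *Tshz3* (0.978). These values are a description over 6 libraries that share the step between days and the mouse of origin.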

How the data were processed

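RNA of 6 organoid cultures was, per the labels, turned into 3′ libraries with the QuantSeq kit of Lexogen. The deposited files hold raw read counts per Ensembl gene ID, which the authors made from reads aligned to GRCm39. The submitters' processing notes name edgeR. The aligner, the annotation release and the strand setting are not given in the sources used here. Closing entries that name no gene (9.12% to 14.4% of reads) were left out. IDs were named from GENCODE vM39 (43465 of 47643, 91.2%), also on GRCm39.

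A gene entered the test if 2 or more libraries had a count of 1 or more. Day 7 was compared with day 5 in edgeR 4.0.16 (R 4.3.3) by its quasi-likelihood F test, with TMM scaling and no term but the day (robust = FALSE), and with the filter and thresholds that the methods of the study give. Benjamini-Hochberg adjustment ran over every gene tested. The SE is the unshrunk log2 change divided by the square root of F. CPM are per 1000000 counts of the scaled library. The script was tested on simulated data. Sums of markers were compared with an exact two-sided permutation test (scipy 1.17.1). Alternatives used DESeq2 1.42.0, limma 3.58.1, other scalings, filters and thresholds, thinned counts, the mouse as a block, and each library left out. The 10 factors, the lists and the tests were chosen with earlier results of these data known.

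The text names all 10 factors, up to 3 called genes with the smallest p in each direction from each list, *Trp63*, *Grhl2*, *Ovol2* and the 4 ZNF750 partners, and the 3 genes most like the factor with the smallest p in each direction. The titles give the mouse of each library, which pairs the days. Over 8172 genes whose mean reached 10 CPM, the paired deviations from the day means correlated at 0.14, -0.10 and 0.16 for mice 1, 2 and 3. All pairs of libraries differed by more than counting noise (smallest chi-square per degree of freedom 1.99). A count of 0 allows up to 3 counts, which is 1.06 to 1.56 CPM of the unscaled library. These floors and the intervals of count ratios hold for counting error alone, as no molecular identifiers are named in the sources used here.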

Additional observations from a re-analysis of the deposited data

How the results depend on the processing

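The number of called factors was 5. It was 3 with filterByExpr, which removed *Prdm1* and under which *Hopx* missed the threshold, 1 (*Prdm1*) with glmTreat against a minimum change of 0.6, and 3 when a log2 change over 1 was required. Without 1 library it ranged from 1 to 7. No called factor was lower than on day 5 in any of the 21 alternatives. The count over all genes was 1901. It was 622 with glmTreat and 797 to 2576 without 1 library. With library totals only as scaling, the split over all genes was 950 higher and 1008 lower in place of 1140 and 761, while the factors stayed at 5 higher and 0 lower. The cause was not tested.

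With the mouse as a replicate block, 5 factors and 2340 genes were called, no call of a factor changed, and the count of cofactors was 3 in place of 1. *Klf4* was the factor whose sign turned, without day 7 replicate 2 or 3, with values from -0.45 to 0.13 when 1 library was left out. Without 1 library the counts were 1 to 5 for paralogs, 6 to 13 for other squamous factors, 1 to 3 for cofactors, 19 to 30 for structural genes and 2 to 10 for basal genes. Single factors changed their call also as follows. *Zfp750* passed without the filter (0.69). *Ovol1* (1.47), *Cebpb* (0.82), *Gata3* (1.00) and *Hopx* (1.67) missed the threshold with glmTreat. *Hopx* also missed it with a mean count of at least 10, both limma voom fits, robust = TRUE and thinned counts (1.36 to 1.67). Depth limits *Prdm1*, *Grhl3*, *Ovol1*, *Gata3* and *Hopx*, which had 2 to 76 counts over the 3 day 5 libraries.

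Exons of 1 factor (*Gata3*) overlap another gene on the same strand and those of 7 overlap at least 1 on the opposite strand. Of these, *Tbcd* had 70 to 198 counts in a library beside *Zfp750*, and *Peds1* 21 to 47 beside *Cebpb*. The strand setting is not stated, and without strand, reads from the shared stretch cannot be told apart. No other gene's exon lay in the last 500 annotated bases of any of the 10 factors.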

Other observations

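Ratios between family members within a library do not depend on the scaling of libraries. They were computed for 5 pairs chosen after the values were seen, and each was compared between the days with an exact two-sided permutation test. The log2 ratio of *Ovol1* to *Ovol2* counts was -0.87, -0.64 and -1.30 on day 5 and 1.74, 0.30 and 1.84 on day 7 in mice 1, 2 and 3. It was thus under 0 in all 3 libraries of day 5 and above 0 in all 3 of day 7, a difference of 2.23 (exact p = 0.1, the smallest that 3 against 3 libraries allow, adjusted p = 0.167 over the 5 pairs). The ratio of *Grhl3* to *Grhl2* went from -3.56 ± 0.55 to -2.80 ± 0.25 (SD, n = 3, exact p = 0.1) and that of *Klf4* to *Klf5* from 0.54 ± 0.06 to 0.90 ± 0.19 (SD, n = 3, exact p = 0.1), both without overlap and with the same adjusted p. The ratio of *Cebpb* to *Cebpa* went from 2.00 ± 0.27 to 2.68 ± 0.54 (SD, n = 3, exact p = 0.2), and that of *Grhl1* to *Grhl2* from -0.10 ± 0.49 to 0.09 ± 0.82 (SD, n = 3, exact p = 0.9), with overlapping days.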
